A study of Homo sapiens with 6 samples.

Results

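The Ikaros family comprises 5 zinc finger transcription factors, most of them best known from lymphoid cells. Matching each of the 78932 gene identifiers counted here, without its version, to its symbol found all 5 of their genes, IKZF1 to IKZF5. They were followed in RNA from Karpas-45, an established T-cell acute lymphoblastic leukemia line whose labels give bone marrow as the tissue and leukemic blasts as the cell type. One group carried a scramble control (genotype WT), the other a GFP-linked short hairpin RNA against the MADS-box transcription factor MEF2C (shMEF2CKD2, genotype MEF2C KD), and both are labelled untreated. The hairpin was delivered by lentivirus and GFP-positive cells were sorted 120 hours later, a step that the design text gives for the MEF2C hairpin. Each group held 3 libraries, called technical replicates in the labels, so that p-values here measure the spread between such replicates of 1 hairpin and 1 control.

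Ikaros proteins bind DNA through a cluster of N-terminal zinc fingers and pair with each other through C-terminal fingers. IKZF1 (Ikaros) recruits chromatin corepressors to its targets and is a tumour suppressor in lymphoid leukemia, where deletions of the gene are common. IKZF3 (Aiolos) acts mainly in B cells and in differentiated lymphocytes, IKZF2 (Helios) and IKZF4 (Eos) are best known from T cells and regulatory T cells, and IKZF5 (Pegasus) is the most divergent and most widely expressed member. Ikaros and Aiolos are also the proteins that thalidomide analogues direct to the CRL4-CRBN ubiquitin ligase for degradation, through their second zinc finger.

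The coding DNA of that finger is shown to place the genes within the family, since the read counts have to tell 5 related transcripts apart. For each gene the transcript with the longest coding sequence in GENCODE 29 on GRCh38 was translated and searched for C2H2 or C2HC fingers, and the finger most like the second finger of IKZF1 is printed 5′ to 3′ over 63 bases. Capitals mark bases unlike IKZF1 at the same position.
IKZF1: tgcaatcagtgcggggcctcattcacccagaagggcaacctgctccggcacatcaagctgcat
IKZF2: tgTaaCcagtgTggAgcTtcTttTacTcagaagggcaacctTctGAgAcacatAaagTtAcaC
IKZF3: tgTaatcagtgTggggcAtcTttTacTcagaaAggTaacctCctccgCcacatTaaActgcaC
IKZF4: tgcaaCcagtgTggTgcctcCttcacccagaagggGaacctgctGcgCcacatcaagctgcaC
IKZF5: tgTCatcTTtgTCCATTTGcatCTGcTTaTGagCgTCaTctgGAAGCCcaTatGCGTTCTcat

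IKZF4 differed from IKZF1 at 8 of the 63 bases, IKZF3 at 13, IKZF2 at 16 and IKZF5 at 37. Each printed stretch was the second finger of its protein and lay within 1 exon. They lie on GRCh38 at chr7:50382557-50382619 (plus strand) for IKZF1, chr2:213049801-213049863 (minus strand) for IKZF2, chr17:39791504-39791566 (minus strand) for IKZF3, chr12:56027797-56027859 (plus strand) for IKZF4 and chr10:122994644-122994706 (minus strand) for IKZF5. The search found 5 fingers in each of IKZF1 to IKZF4, of which 4 were N-terminal and 1 C-terminal, and 4 fingers in IKZF5. The matched pattern does not hold every C-terminal finger of the family.

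IKZF1 (ENSG00000185811.21) spans 50304068 to 50405101 on the plus strand of chromosome 7, and IKZF2 (ENSG00000030419.17) spans 212999691 to 213152427 on the minus strand of chromosome 2. IKZF3 (ENSG00000161405.18) spans 39757715 to 39864188 on the minus strand of chromosome 17. IKZF4 (ENSG00000123411.15) spans 56007659 to 56038435 on the plus strand of chromosome 12, and IKZF5 (ENSG00000095574.12) spans 122990806 to 123008817 on the minus strand of chromosome 10. Exons of other genes cover 1.01% of the exonic bases of IKZF1 and 1.64% of those of IKZF5, the latter from the opposite-strand gene PSTK, whose reads cannot be told apart there without a known strand setting, and 0% of those of IKZF2, IKZF3 and IKZF4. The counts are per gene, so the splice forms of Ikaros, some of which lack DNA-binding fingers, cannot be told apart.

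Reads assigned to genes ran from 45560303 to 97077335 per library. Hairpin replicate 3 stood apart by its 16.1% of reads aligned to more than 1 place, against 3.56 to 6.86% in the other libraries. The targeted gene MEF2C received between 0 and 2 reads per library in both groups, at or under the floor of 3 reads, so it cannot check the labels and no fold change is given. The labelled T lineage was checked on 10 marker genes, which all entered the test. Of these, 6 came out higher and 1 lower, where 13.5% of all tested genes were higher and 15.3% lower. Their log2 fold changes ran from -0.13 (TRAC) to 1.09 (CD5), and CD3E, CD247 and BCL11B did not pass. Their summed level was 2772 to 2804 CPM with the scramble and 2986 to 3005 CPM with the hairpin. These sums, and those of the other marker lists below, were scaled to gene reads alone, without the TMM factors used for CPM elsewhere. Those factors were 0.980 to 0.988 in scramble and 1.01 to 1.02 in hairpin libraries. Without them, hairpin sums read higher against scramble sums than TMM-scaled CPM would. The groups were separate in TMM-scaled CPM for 39.9% of all tested genes. The part of the T lineage in the results for IKZF2 and IKZF4 was not tested. In bulk RNA, more RNA per cell and more cells that express a gene cannot be told apart. B-lineage markers summed to 2.99 to 3.56 and 4.10 to 4.22 CPM, with EBF1 at 0 reads in every library, and myeloid markers to 1.45 to 1.82 and 1.47 to 2.23 CPM, with FCGR3A at 0. Of the regulatory T-cell markers, 4 in all, IL2RA had 0 reads in every library and the sum ran from 0.206 to 0.527 CPM and from 0.255 to 0.525 CPM. NK markers summed to 0.474 to 0.856 and 0.773 to 1.12 CPM, and erythroid and megakaryocyte markers to 0.823 to 6.03 and 1.21 to 2.16 CPM, with PF4 at 0. The most read marker of each of these other lists was detected in every library. CD79A held 116 to 306 reads per library, CD14 59 to 171 and HBB 27 to 351. NKG7 held 18 to 69 and FOXP3 8 to 35. No tested member of these other lists passed the threshold.

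IKZF1 was by far the most abundant family member, and IKZF4 was among the lowest genes tested. To set the genes side by side, CPM (reads of a gene scaled to a common library size, here with TMM factors) were divided by the length of the union of each gene's exons in kilobases. IKZF1 then measured 62.0 ± 0.744 CPM per kb with the scramble and 61.0 ± 0.187 CPM per kb with the hairpin (SD, n = 3 each). Its mean over the 6 libraries was above that of 96.6% of the 15909 tested genes with a length. IKZF2 followed at 12.4 ± 0.217 and 15.0 ± 0.165 CPM per kb (SD, n = 3 each), above 77.4% of those genes.

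IKZF3 measured 10.8 ± 0.249 CPM per kb with the scramble and 10.8 ± 0.487 CPM per kb with the hairpin (SD, n = 3 each). IKZF5 measured 8.99 ± 0.193 and 8.59 ± 0.377 CPM per kb (SD, n = 3 each). IKZF4 measured only 0.241 ± 0.0176 and 0.361 ± 0.0235 CPM per kb (SD, n = 3 each), below all but 14.4% of the tested genes. In the order IKZF1, IKZF2, IKZF3, IKZF5, IKZF4, no 2 neighbours overlapped in their ranges over the 6 libraries. The range of IKZF2 was 12.2 to 15.1, that of IKZF3 10.4 to 11.3, and that of IKZF5 8.22 to 9.11 CPM per kb. With the longest transcript as the length the order was the same, but IKZF1 came to 108 ± 1.29 CPM per kb in scramble libraries (SD, n = 3), so the distance between genes depends on the length used.

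**Figure D1:**
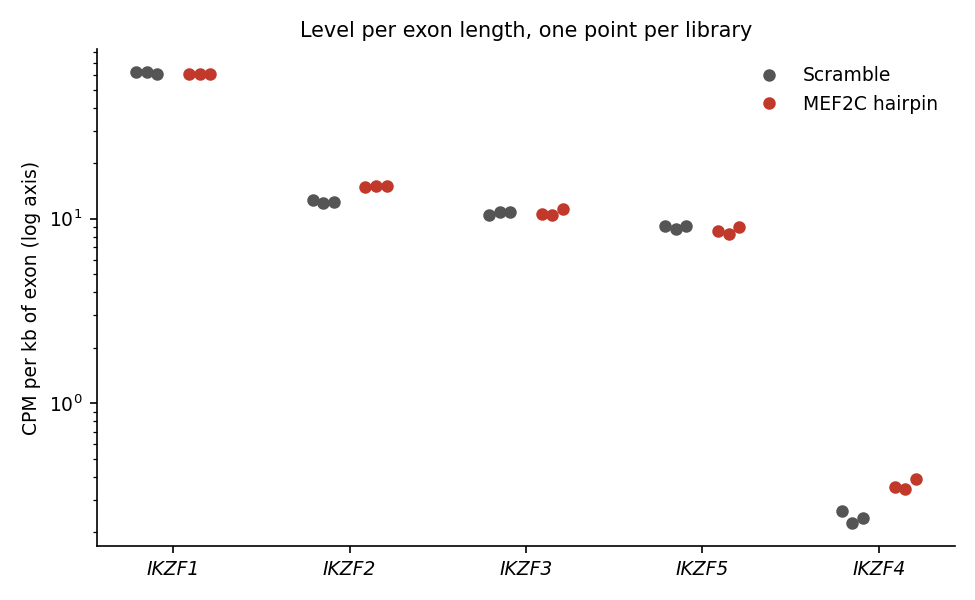
Level of each Ikaros family gene as CPM per kilobase of exon, on a log axis, with 1 point per library for the 3 scramble (grey) and 3 hairpin libraries (red). IKZF1 lies near 62.0, IKZF2, IKZF3 and IKZF5 lie between 8.22 and 15.1, and IKZF4 lies below 0.388 in every library.

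The hairpin libraries held more IKZF2 and IKZF4 mRNA than the scramble libraries, while IKZF1, IKZF3 and IKZF5 did not pass the test. Of the 5 members, all of which passed the filter on low counts, 2 were higher and 0 lower by edgeR's quasi-likelihood test at an adjusted p under 0.05. Of all 17677 genes tested in this comparison, 28.8% passed, 13.5% with higher and 15.3% with lower counts under the hairpin. Calls were thus common in this comparison, and 2 of 5 is not far from that share. The CPM of the 2 groups did not overlap for 2 of the 5 members, IKZF2 and IKZF4, and for 39.9% of all tested genes, so the members' share is that of the background. The median log2 fold change (hairpin over scramble) was 0.00 for the 5 members and 0.00 for all tested genes.

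**Figure D2:**
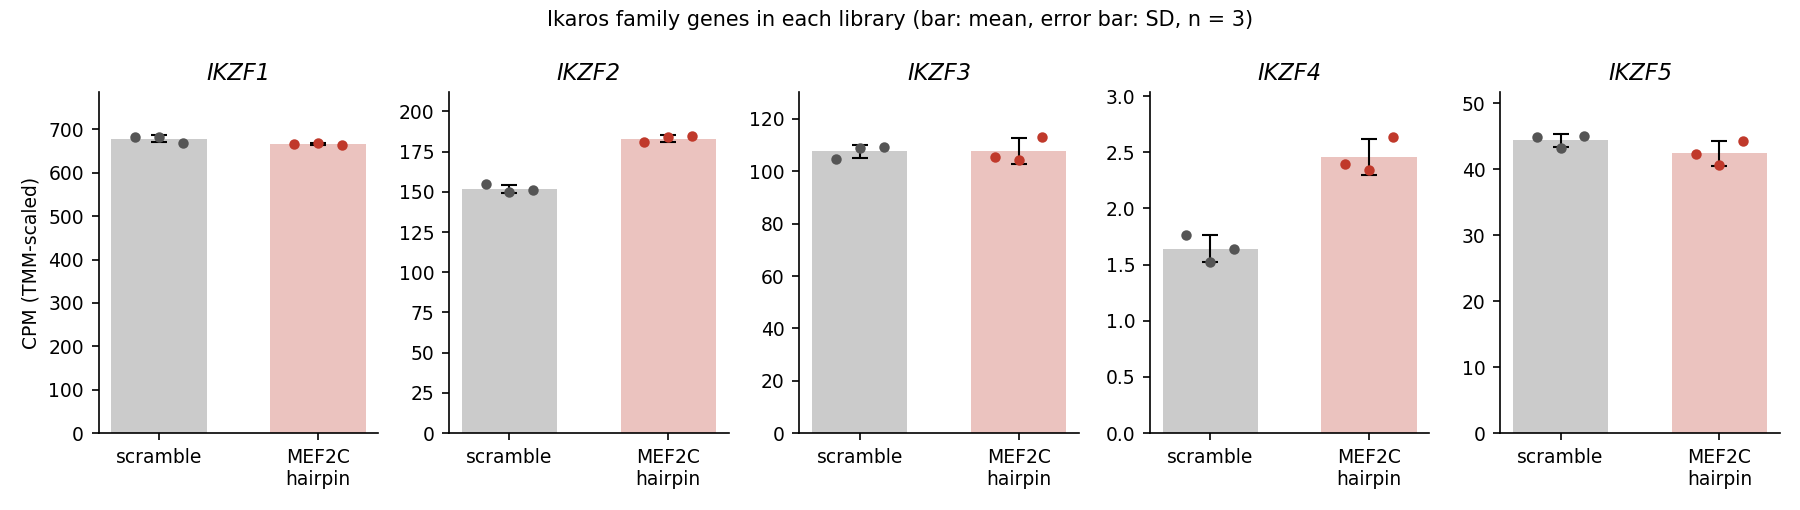
TMM-scaled CPM of each Ikaros family gene in the 3 scramble (grey) and 3 hairpin libraries (red), 1 point per library, with bars for the mean and error bars for the SD, each panel on its own axis from 0. The 2 groups are separate for IKZF2 (at most 155 against at least 181 CPM) and IKZF4 (at most 1.76 against at least 2.34 CPM) and overlap for the other 3 genes, where 39.9% of all tested genes are separate.

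IKZF2, which encodes Helios, was counted in 9646, 6674 and 9044 reads of the scramble libraries, in replicate order, and in 10730, 18155 and 9569 reads of those with the hairpin. These correspond to 155, 149.6 and 151 CPM in scramble and 181, 184 and 184 CPM in hairpin libraries. Each of the hairpin libraries lay above each of the scramble libraries, as separate groups were in 39.9% of all tested genes. The mean rose from 152 ± 2.66 to 183 ± 2.02 CPM (SD, n = 3 each), which edgeR put at 0.27 on the log2 scale (SE 0.0240, 95% interval 0.22 to 0.32, adjusted p = 1.71e-11). That is an increase of 20.6%. Without hairpin replicate 3, the library with many multiply aligned reads, the value was 0.26 (edgeR, adjusted p = 3.25e-09). Among tested genes with a mean of at least 100 CPM, the class IKZF2 falls in, 12.6% had higher and 44.9% lower levels with the hairpin, and the class median was -0.05.

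IKZF4, which encodes Eos, was counted in 110, 68 and 98 reads of the scramble libraries, in replicate order, and in 142, 231 and 137 reads of those with the hairpin. In CPM these were 1.76, 1.52 and 1.63 against 2.39, 2.34 and 2.64, with the groups separate here too. The mean rose from 1.64 ± 0.120 to 2.46 ± 0.160 CPM (SD, n = 3 each), which edgeR put at 0.57 on the log2 scale (SE 0.169, adjusted p = 0.00835). The 95% interval of 0.23 to 0.91 spans a 1.17-fold to a 1.89-fold increase, the widest interval of the family and the one with the fewest reads. Without hairpin replicate 3, its highest library, the value was 0.52 (edgeR, adjusted p = 0.0349). In the class of 1 to 5 CPM that holds IKZF4, 14.0% of genes passed as higher and 3.52% as lower, and the class median was 0.09.

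IKZF1, the founding member, was counted in 42510, 30490 and 40085 reads of the scramble libraries, in replicate order, and in 39583, 65978 and 34491 reads of those with the hairpin. Its levels were 682, 684 and 669 CPM in scramble and 667, 669 and 665 CPM in hairpin libraries. Scramble replicate 3 and hairpin replicate 2 had nearly the same value, so the groups touched. The means were 678 ± 8.14 and 667 ± 2.04 CPM (SD, n = 3 each), and edgeR gave a log2 difference of -0.02 (SE 0.0191, adjusted p = 0.386). The 95% interval of -0.06 to 0.01 spans ratios of 0.957 to 1.01. It rests on the spread between technical replicates of 1 hairpin and 1 control, and so sets no bound for other hairpins or cultures.

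IKZF3, which encodes Aiolos, measured 105, 109 and 109 CPM in scramble and 106, 104 and 113 CPM in hairpin libraries, from 4856 to 10289 reads per library. The highest and the lowest of the 6 values were both in the hairpin group. By edgeR the log2 difference was 0.00 (SE 0.0300, adjusted p = 0.972), with a 95% interval of -0.06 to 0.06. IKZF5, which encodes Pegasus, measured 44.9, 43.3 and 44.95 CPM in scramble and 42.3, 40.6 and 44.3 CPM in hairpin libraries. Hairpin replicate 3 lay within the scramble range and the other two libraries below it. Its log2 fold change of -0.07 (SE 0.0411, 95% interval -0.15 to 0.01, edgeR adjusted p = 0.218) did not pass the threshold.

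**Figure D3:**
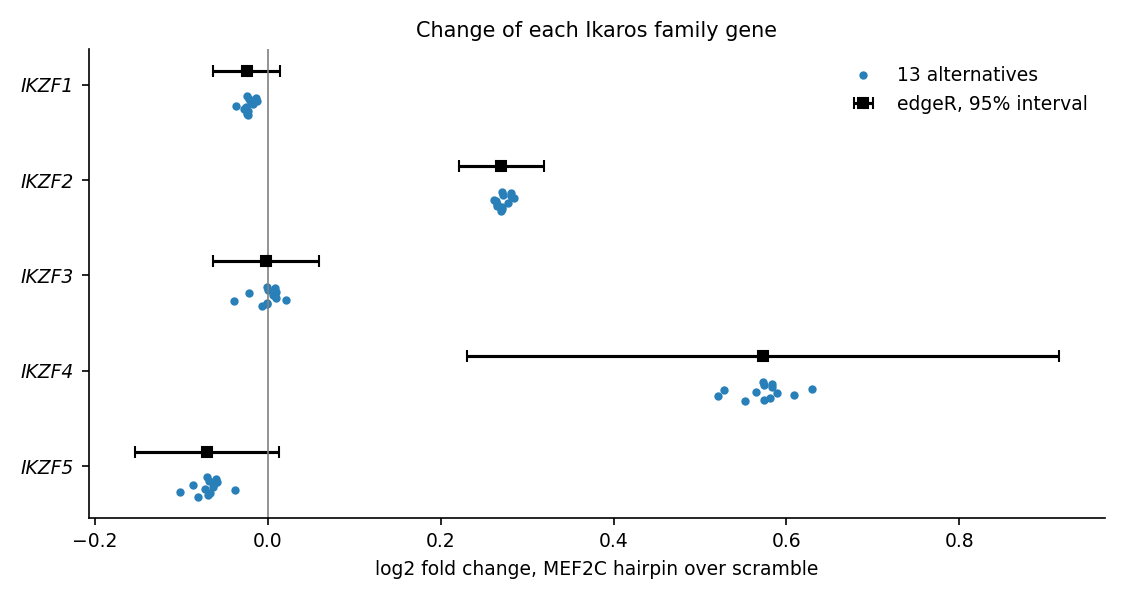
Log2 fold change of each Ikaros family gene, hairpin over scramble, with the edgeR estimate and its 95% interval (black) and the estimates of 13 alternative analyses (blue). The intervals of IKZF2 and IKZF4 lie above 0 and those of IKZF1, IKZF3 and IKZF5 include it.

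For each pair of genes the ratio of their reads was taken within a library, where library scaling cancels. IKZF1 gave 4.41, 4.57 and 4.43 reads per IKZF2 read with the scramble, and 3.69, 3.63 and 3.60 with the hairpin, in replicate order. The log2 ratio of IKZF1 to IKZF2 was lower by 0.29 in the hairpin libraries, with SDs of 0.0279 and 0.0170 (n = 3 each). The groups did not overlap in 7 of the 10 pairs, which were the pairs that held IKZF2 or IKZF4, and overlapped in the 3 pairs among IKZF1, IKZF3 and IKZF5. These pairs share the members' own reads, so the count restates the differences of IKZF2 and IKZF4 given above, and no share over other gene pairs was computed. A two-sided exact permutation test over 3 against 3 libraries cannot go below p = 0.10, and each of the 7 pairs had that value (0.143 adjusted over the 10 pairs).

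IKZF2 gave 87.7, 98.1 and 92.3 reads per IKZF4 read in scramble and 75.6, 78.6 and 69.8 in hairpin libraries, a difference in log2 ratio of -0.31 (exact permutation p = 0.10). Between Helios and Aiolos, which were close in level, the ratio went from 1.48, 1.37 and 1.38 IKZF2 reads per IKZF3 read to 1.71, 1.76 and 1.63. As a share of the summed CPM per kb of the 5 genes, IKZF2 made up 13.1 ± 0.204% with the scramble and 15.6 ± 0.147% with the hairpin (SD, n = 3 each). IKZF1 made up 65.7 ± 0.434% and 63.8 ± 0.689% (SD, n = 3 each). The shares are parts of a whole, so a rise of any member lowers the others, and they depend on the length used. The sum itself was 94.4 ± 0.560 and 95.7 ± 0.772 CPM per kb (SD, n = 3 each).

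The sequence of the hairpin was compared with the family transcripts, because a short hairpin can also act through the seed of either of its strands. The target given for MEF2C, and the strand complementary to it with bases 2 to 8 in capitals, read as follows.
target: cccaatgaatttaggaatgaa
guide: tTCATTCCtaaattcattggg

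No protein-coding transcript of the 5 genes matched the 21 target bases with fewer than 7 mismatches. The seed of the complementary strand pairs with GGAATGA and that of the target strand with TCATTGG, and both were searched in the sense direction. Of 11885 tested genes with a 3′ UTR, 10.2% hold GGAATGA and 8.81% hold TCATTGG there, in the transcript with the longest coding sequence. By that measure IKZF3 alone of the members held GGAATGA, and none held TCATTGG. The members were also searched in every region of all their protein-coding transcripts, a wider search without a background share. The IKZF2 site in a 3′ UTR comes from that search. Over all these transcripts, IKZF1 and IKZF5 held neither. The sites found in the other 3 genes are printed with the 7 matched bases in capitals.
IKZF2, 5′ UTR: gatttgggcttGGAATGAcccacctgtaa
IKZF2, 3′ UTR: ttatttctagtTCATTGGtaatttaatct
IKZF3, 3′ UTR: tctacagcagtGGAATGAgtggtcccgga
IKZF3, coding: gcctcagaaatTCATTGGtgagaagcgcc
IKZF4, 5′ UTR: acatatgagagTCATTGGcaacacccggg

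In GRCh38 the matched bases of the IKZF2 sites lie at chr2:213150383-213150389 and chr2:213001640-213001646. Those of the IKZF3 site in the 3′ UTR lie at chr17:39765498-39765504, and its coding site crosses an exon junction between 39766493 and 39777656. The IKZF4 site lies at chr12:56019389-56019395. IKZF3, the only member with GGAATGA in a 3′ UTR, measured a log2 fold change of 0.00, and the part of either seed in the values of these genes was not tested.

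The promoters of the members that rose are shown for reference, as the 250 bases before a RefSeq start on GRCh38.p14, with the Ikaros core sequence GGGAA, on either strand, in capitals. The first is IKZF2, chr2:213152457-213152706, minus strand, and the second IKZF4, chr12:56007254-56007503, plus strand.
IKZF2: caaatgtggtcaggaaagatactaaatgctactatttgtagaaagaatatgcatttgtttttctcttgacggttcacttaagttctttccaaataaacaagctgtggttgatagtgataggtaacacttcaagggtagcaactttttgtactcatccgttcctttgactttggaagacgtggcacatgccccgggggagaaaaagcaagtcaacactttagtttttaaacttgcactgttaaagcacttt
IKZF4: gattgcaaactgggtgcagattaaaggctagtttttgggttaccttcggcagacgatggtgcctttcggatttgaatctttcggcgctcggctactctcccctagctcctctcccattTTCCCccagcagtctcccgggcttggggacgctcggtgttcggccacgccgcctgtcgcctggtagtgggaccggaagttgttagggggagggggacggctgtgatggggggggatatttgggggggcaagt

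The RefSeq promoter table held 10 such windows for 4 of the 5 genes, IKZF1, IKZF2, IKZF4 and IKZF5. The MEF2 consensus element, searched on both strands, was in 0 of the 10 and in 2.80% of the 35116 windows of the table. GGGAA was in 7 of the 10 and in 59.0% of all windows, and neither window of IKZF2 held it. Some windows of a gene overlap, so both IKZF5 windows hold the same GGGAA site and overlapping IKZF4 windows share a site. These letters describe the windows shown and not the binding of a factor.

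Among genes that work with or on Ikaros proteins, the tested members stayed within 0.16 on the log2 scale. The corepressor list held 17 subunits of the NuRD, SIN3 and CtBP complexes, through which Ikaros proteins act on chromatin, and all were tested. Of these, 1 was higher and 5 lower by edgeR, 35.3% in all against 28.8% of all tested genes, and 11 did not pass. The helicase CHD3 rose from 132 ± 3.01 to 146 ± 4.85 CPM (SD, n = 3 each), a log2 difference of 0.16 with SE 0.0268 (adjusted p = 1.74e-05 by edgeR). The histone chaperones RBBP4 and RBBP7 fell, RBBP4 from 894 ± 5.49 to 803 ± 9.25 CPM (SD, n = 3 each), a log2 difference of -0.16 (adjusted p = 2.15e-08 by edgeR) and RBBP7 by a log2 value of -0.12. The list ran from -0.16 to 0.16 with a median of -0.04.

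The second list held the CK2 and PP1 genes, whose kinase and phosphatase set the phosphorylation of Ikaros, and the ligase genes that act on Ikaros and Aiolos in the presence of thalidomide analogues. Of its 11 members, 0 were higher and 5 lower (45.5% past the threshold), and the list ran from -0.14 to 0.14 around a median of -0.06. The PP1 catalytic subunits PPP1CC and PPP1CB changed by -0.14 and -0.12 (edgeR adjusted p = 2.91e-06 and 9.20e-05), and the CK2 catalytic subunit CSNK2A2 by -0.14 (edgeR adjusted p = 3.52e-05). CRBN itself, the substrate receptor, stood at 31.3 ± 1.20 CPM with the scramble and at 31.2 ± 1.76 CPM with the hairpin (SD, n = 3 each), where edgeR gave an adjusted p of 0.995. It is named here after its value was seen. Of tested genes with at least 100 CPM, where most members of both lists lie, 44.9% were lower.

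Among genes reported as targets of Ikaros proteins, most of those tested were higher with the hairpin. Of 24 in the list 19 were tested, and 12 were higher and 2 lower, 73.7% in all beside 28.8% of all tested genes. The median log2 fold change was 0.22 beside 0.00 for all tested genes. The cell cycle inhibitor CDKN1A rose from 5.29 ± 0.518 to 11.0 ± 0.197 CPM (SD, n = 3 each), a log2 difference of 1.06 with SE 0.0900 (adjusted p = 4.95e-12 by edgeR). The Notch receptor NOTCH3 rose from 423 ± 6.56 to 476 ± 11.6 CPM (SD, n = 3 each), a log2 difference of 0.17 with SE 0.0212 (adjusted p = 5.12e-08 by edgeR), and NRARP, a Notch feedback regulator, from 27.6 ± 1.79 to 37.9 ± 3.21 CPM (SD, n = 3 each), a log2 difference of 0.45 with SE 0.0545 (adjusted p = 5.35e-08 by edgeR). The list mixes genes that Ikaros proteins are known to repress and to activate, shares genes with the Notch and thymocyte programmes, and was drawn up with results of these data known, so it is no independent evidence of a direction. Whether these changes are tied to the levels of IKZF2 or IKZF4 was not tested.

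**Figure D4:**
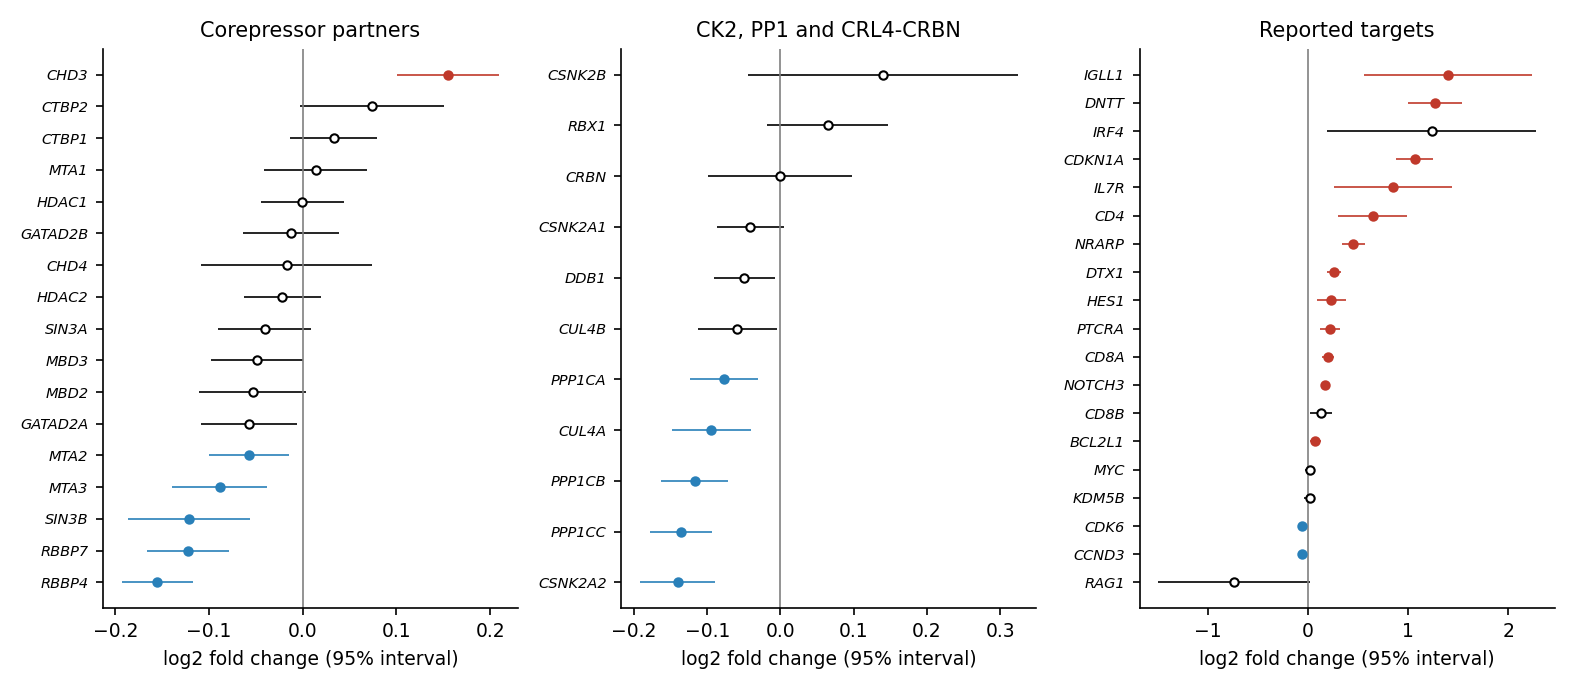
Log2 fold change (hairpin over scramble) and unadjusted 95% interval of each tested gene in the corepressor, CK2, PP1 and CRL4-CRBN, and target lists, with filled red (higher) or blue (lower) points past the adjusted threshold and open points for the rest. The points of the first and second panels lie between -0.16 and 0.16, and the target panel runs from -0.74 to 1.40. The genes at both ends of the target panel held only 10 to 64 reads per library, and the lower of them did not pass.

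The genes whose pattern over the 6 libraries was most like each member were found by the root mean square difference of log2 CPM, after centring each gene on its own mean, among 10142 tested genes with a symbol and at least 5 CPM. For IKZF2 these were TFRC, the transferrin receptor, at a difference of 0.0103 and KCTD11 at 0.0142, where the median over all genes was 0.156. TFRC rose by a log2 fold change of 0.28 (edgeR adjusted p = 5.59e-15) and KCTD11 by 0.28 (edgeR adjusted p = 0.000201). For IKZF4 the nearest were IFI44 at 0.0292 and MIR4435-2HG at 0.0388, which rose by 0.54 and 0.63 (edgeR adjusted p = 1.26e-07 and 1.69e-06). For the members that did not pass the test the nearest genes were EFTUD2 and PAICS for IKZF1, CDYL and TMEM175 for IKZF3, and ZNF888 and KMT5B for IKZF5. None of these passed it. All these neighbours were picked by likeness over the same 6 libraries. Fold changes like those of their members thus follow from the choice and are no separate result.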

How the data were processed

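The labels' protocols name TRIzol for total RNA and TruSeq for the libraries. The authors deposited whole-number read counts per gene, made with Trim Galore, STAR and HTSeq on hg38 per the submitters' processing notes. Versions, annotation release and strand setting are not given in the sources used here. The 5 HTSeq summary lines, 19.2% to 31.4% of all reads, stayed out of library sizes and tests. Symbols were matched for 77.9% of the 78932 identifiers, and positions and lengths came from GENCODE 29 on GRCh38, whose gene versions differ from those in the files.

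Genes were kept by filterByExpr (minimum count 10), scaled by TMM and tested with edgeR 4.0.16 in R 4.3.3 (quasi-likelihood, robust, group only, Benjamini-Hochberg over 17677 genes, threshold 0.05). Each SE was taken as the size of the log2 fold change divided by the root of its F statistic. The alternatives used DESeq2 1.42.0 and limma 3.58.1, other scaling and filters, a replicate block, and fits leaving out each library. Libraries of a group differed by at least 3.34 chi-square units per gene, above the 1 of sampling noise. On simulated counts for the 17677 genes, the test called 21 of 50 genes changed by a log2 value of 0.25, 31 of 50 at 0.5 and 11 of 17477 unchanged genes. The changed genes were drawn at random over all levels and were far fewer than the 28.8% called in the data. These recoveries therefore do not carry over to a given member.

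The members and the 3 gene lists were chosen with earlier results of these data known. Named genes are the members, MEF2C, up to 3 called genes per list with the smallest adjusted p, and for each member the 2 genes nearest in pattern. Outside this rule, CRBN was named after its value was seen, PSTK for its overlap with IKZF5, and EBF1, FCGR3A, IL2RA and PF4 as markers at 0 reads. TRAC, CD5, CD3E, CD247 and BCL11B were named for the spread of the T-lineage markers. CD79A, CD14, HBB, NKG7 and FOXP3 were named as the markers with the most reads in their lists. These too were named after their values were seen.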

Additional observations from a re-analysis of the deposited data

How the results depend on the processing

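IKZF2 and IKZF4 were called higher in all 13 alternatives, IKZF2 with log2 fold changes of 0.26 to 0.29 and adjusted p of 3.94e-23 to 2.32e-08, and IKZF4 with 0.52 to 0.63 and 0.00636 to 0.0349. IKZF1 and IKZF5 kept their direction and passed the threshold in none of the 13, with adjusted p of 0.243 to 0.662 and 0.0910 to 0.640. IKZF3, at -0.00204 in the main fit, lay so close to 0 that its sign turned in 7 of the 13, never past the threshold. It turned at 0.00865 with upper-quartile scaling, 0.000178 with no filter and 0.00952 with the stricter filter. The sign also turned, at 0.00621 to 0.0214, without scramble replicate 2 or 3 and without hairpin replicate 1 or 2. Without scramble replicate 1 or hairpin replicate 3 the value stayed negative, at -0.0214 and -0.0386. The genes called overall numbered 5097, and 4113 to 5082 in the alternatives. The corepressor list kept 5 or 6 calls, the CK2, PP1 and CRL4-CRBN list 4 or 5, and the target list 10 to 14. Replicate numbers did not pair the libraries: deviations of same-numbered libraries correlated at -0.0135, -0.0137 and -0.00314. The fit with a replicate block gave 0.27 for IKZF2 (adjusted p = 1.65e-11) and 0.58 for IKZF4 (adjusted p = 0.00923) and changed no other call of a member. The median of all tested genes shifted by 0.0006 with DESeq2's size factors and 0.0106 with upper-quartile scaling, and by 0.03 with no filter, which also changes the genes tested. Depth limits IKZF4, with 68 to 231 reads per library.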
